A study of Mus musculus with 2 samples.

Results

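Hepatoblasts and hepatocytes were present as a small population among the blood progenitors that were sorted from E14.5 fetal livers of IκBα WT and IκBα KO embryos. They were identified by measured values: a cell was counted when the transcripts of Alb, Afp, Apoa1 and Ttr together made up at least 1% of its unique molecular identifiers (UMIs, each standing for 1 captured RNA molecule). This rule found 33 of 3458 cells in the WT library and 67 of 4417 cells in the KO library, 100 of 7875 cells in all. Because these 4 genes chose the cells, their levels, and those of genes that accompany them, describe the population and were not tested.

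The series held 2 single-cell RNA-seq libraries, 1 per genotype, made by the 10x Genomics 3' method from fetal liver of CD1 strain embryos at E14.5. For WT, 2 embryos were pooled, and for KO, 3 embryos of a germline IκBα knockout line, in which Nfkbia, the gene for the NF-κB inhibitor IκBα, is disrupted in every tissue. Livers were depleted of cells with mature blood lineage markers and sorted for Lin- Sca1+ cKit+ (LSK) cells; the sample titles name LT-HSCs, the sample annotation LSK cells. The hepatic cells were therefore those that passed a gate meant for blood progenitors, and may not represent the hepatoblasts of the organ.

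Hepatoblasts are the bipotent epithelial progenitors of the liver, from which hepatocytes and bile duct cells arise. In the fetus they already secrete alpha-fetoprotein, albumin, lipoproteins, clotting factors and complement into the plasma, under the control of the hepatocyte nuclear factors. The fetal liver is at the same time the main site of blood formation, and its hepatoblasts supply growth factors, such as thrombopoietin and stem cell factor, to the hematopoietic stem cells beside them.

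The promoters of the most abundant selecting genes are shown because both hold a certain letter run. In windows of listed genes at least 100-fold above the other cells it was more frequent than in all promoter windows. Alb and Afp are neighbours on chromosome 5. Each window runs from 250 bases before to 50 bases after the RefSeq transcript start (GRCm38.p6), chr5:90460620-90460919 on the plus strand for Alb and chr5:90490464-90490763 on the plus strand for Afp, with GTTAAT, letters found in binding sites of the hepatic factor HNF1, in capitals.

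Alb: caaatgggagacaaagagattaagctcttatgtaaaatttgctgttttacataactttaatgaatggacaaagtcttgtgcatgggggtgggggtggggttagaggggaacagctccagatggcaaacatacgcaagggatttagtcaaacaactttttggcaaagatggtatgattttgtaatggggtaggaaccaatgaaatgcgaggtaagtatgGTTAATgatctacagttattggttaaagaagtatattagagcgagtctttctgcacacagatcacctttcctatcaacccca

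Afp: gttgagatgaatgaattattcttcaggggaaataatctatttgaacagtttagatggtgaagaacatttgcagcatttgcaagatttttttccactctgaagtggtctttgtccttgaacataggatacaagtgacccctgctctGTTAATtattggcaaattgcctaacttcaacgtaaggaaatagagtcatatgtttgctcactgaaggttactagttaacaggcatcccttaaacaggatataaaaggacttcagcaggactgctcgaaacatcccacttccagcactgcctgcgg

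The run began 32 bases before the start of Alb and 105 bases before that of Afp, on the plus strand in both. Read on both strands, it occurred in 2332 of 32851 mouse promoter windows of this length (7.10%) and in 24 of 90 windows (26.7%) of the listed genes that stood at least 100-fold above the other cells. RefSeq windows were found for 73 of those 96 genes, and for 3 of the 4 selecting genes. The run was in 2 of the 3 windows of selecting genes. That of Apoa1 held none, nor did the windows of Rbp4. TATAAA was in 20 of the 90 windows (22.2%) and in 13.6% of all windows. CAAAGTCC, a core of HNF4 sites, was in 0 of the 90 windows and in 467 of all windows (1.42%). A narrow form of the NF-κB site, with most letters fixed, was in 0 of the 90 windows and in 394 of all windows (1.20%). Both are rare in all windows, so 0 of 90 does not show that hepatic promoters lack them. Looser forms of the NF-κB site were not searched. A match is a description of letters, and was not tested as a binding site.

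The hepatic cells formed 0.954% of the filtered WT cells (exact binomial 95% interval 0.658 to 1.34) and 1.52% of the KO cells (1.18 to 1.92). The KO share was 0.563 percentage points higher (0.0506 to 1.06), a ratio of 1.59. It was positive under all 8 other choices of cells, but under 5 of them its interval included 0: −0.0586 to 0.696 under a 5% rule, −0.115 to 0.858 without Scrublet doublets, −0.251 to 0.805 in cells that had Xist but no Y-linked UMIs, −0.0442 to 0.872 without cells with 3 or more leukocyte UMIs, and −0.0688 to 0.798 without cells with RNA of another lineage. All intervals here cover counting error only; with 1 library per genotype there was no replicate check, no p-value could be given, and genotype cannot be told apart from pool, dissection, sort or library. The sort gate, meant for other cells, also sets this share.

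The boundary at 1% was clear in the WT library, where no cell lay between 0.5% and 1%, the nearest cell below had 0.213% and the nearest above had 1.12% and 1.92%. In the KO library 4 cells lay just under it at 0.853%, 0.770%, 0.660% and 0.630%, and the nearest above had 1.19%, 1.57% and 1.86%. The median share was 5.24% in the WT cells and 5.37% in the KO cells, and the highest were 10.7% and 12.2%.

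**Figure D1:**
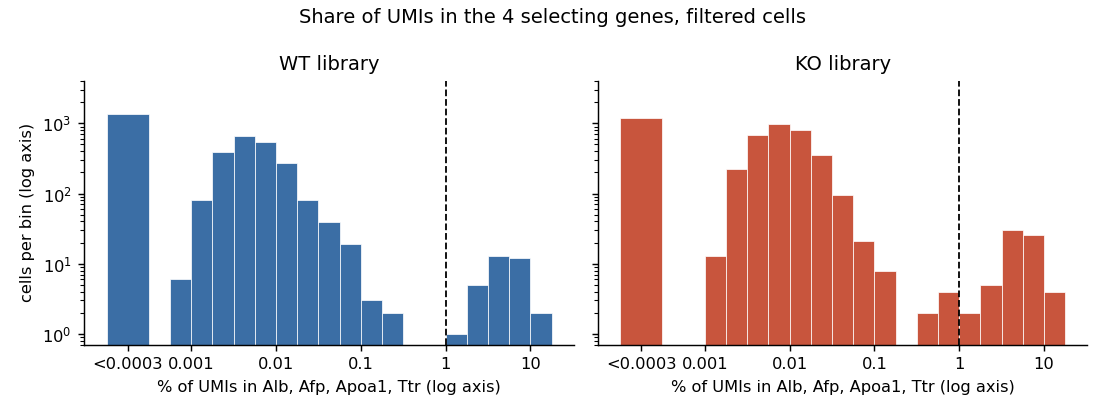
Number of filtered cells (log axis) by the percentage of their UMIs in Alb, Afp, Apoa1 and Ttr (log axis; the leftmost bar holds cells with none or almost none), with the WT library in blue, the KO library in red and the 1% boundary dashed. The 33 WT and 67 KO hepatic cells form a separate group at the right, with 4 KO cells between 0.5% and 1%.

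These cells were deeply sampled. Their median UMI count was 45467 in WT (range 2031 to 117811) and 31127 in KO (5526 to 99898), against 27891 and 19484 in all other cells, and the median number of detected genes was 5810 and 5066. Together the WT cells held 1811079 UMIs and the KO cells 2384589, of 109122324 and 100029143 in the libraries. No cell barcode of a hepatic cell occurred in both libraries, whereas 7 barcodes of other cells did. Nfkbia checked the labels: 34 UMIs were counted in the WT hepatic cells, 18.8 counts per 1000000 UMIs (CPM; exact Poisson interval 13.001 to 26.2), and 0 in the KO cells, which allows up to 1.258 CPM. The pools also differed in sex: UMIs of Xist without Y-linked genes were found in 30 WT and 36 KO hepatic cells, Y-linked genes without Xist in 1 and 15, and both in 0 and 13.

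The genes of the sort were low in the hepatic cells. Kit, encoding the cKit receptor used in the gate, was at 5.52 CPM (WT) and 9.23 CPM (KO), against 50.4 and 42.7 CPM in the other cells. Ly6a, which encodes Sca1, had 2 UMIs, all in 1 cell, in WT and 3, in 3 cells, in KO. Ptprc, the pan-leukocyte CD45 gene, was at 2.76 and 5.87 CPM, against 26.0 and 23.6 CPM in the other cells. The hepatic cells thus had UMIs of the plasma protein genes at high levels and those of the gate at low levels.

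Secreted plasma proteins were among the most abundant transcripts. Afp, the fetal carrier protein that albumin replaces after birth, was the most abundant gene, at 20537 CPM (WT) and 21763 CPM (KO). It was detected in all 100 cells, from 6086 to 41942 CPM over WT cells (median 20355) and from 5826 to 52720 CPM over KO cells (median 22880). Alb, the main plasma protein of the adult, followed at 14110 CPM (interval 13938 to 14284) and 16070 CPM (15910 to 16232). Over single cells Alb ranged from 2462 to 35703 CPM in WT cells and from 2480 to 45282 CPM in KO cells. The ranges of both genotypes overlapped for both genes, with a spread between cells much wider than the difference in level.

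The retinol carriers were also abundant. Rbp4, the marker of the population that the rule did not use, was at 7911 CPM (WT) and 7528 CPM (KO); its lowest, median and highest cells were at 2300, 7864 and 15690 CPM in WT and at 2184, 7980 and 13937 CPM in KO. Ttr, the transthyretin that holds retinol-binding protein in the plasma, was at 7097 and 7665 CPM. Trf, the iron carrier transferrin, was at 5213 and 5958 CPM, and Serpina6, the corticosteroid carrier, at 3865 and 4549 CPM. All of these were found in every hepatic cell. Metallothionein Mt1, which binds zinc and copper, was at 10349 and 8421 CPM, above any plasma protein but Afp and Alb in WT.

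Apolipoproteins were expressed as a nearly full set. Apoa2 and Apoa1, the main proteins of high-density lipoprotein, were at 10198 and 7006 CPM in WT and at 10724 and 7385 CPM in KO. Apob, the scaffold of low-density lipoprotein, was at 714 and 711 CPM, with its loading factor Mttp at 97.2 and 99.4 CPM. Apoc3 had 22 and 34 UMIs and Apoa5 2 and 3, and Apoa4 had none in either library. Among 12 list genes outside the rule with enough UMIs, 9 were at least 100-fold above the other cells in both libraries, which held for 4.6% of all 6949 genes with at least 50 UMIs.

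The clotting system was present from fibrinogen to the contact factors. Fgb, Fgg and Fga, the chains of fibrinogen, were at 1313, 982 and 558 CPM in WT and at 1359, 1053 and 576 CPM in KO. F2, prothrombin, was at 384 and 410 CPM, and Serpinc1, antithrombin, at 431 and 493 CPM. F9 had 1 and 12 UMIs and Hrg 4 and 1. Of 17 clotting genes with enough UMIs, 15 were at least 100-fold above the other cells, as were all 11 protease inhibitor genes and 10 of 11 complement genes. Of all genes with enough UMIs 4.6% were. Hc, the C5 component, was at 144 and 128 CPM, and C6 had no UMI. C3, the central complement component, was at 486 and 666 CPM.

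Transcription factors of the hepatic programme were detected at moderate levels. Hnf4a, the nuclear receptor of hepatocyte identity, was at 72.9 CPM (WT) and 84.3 CPM (KO), and had a UMI in 30 of 33 and 57 of 67 cells. Foxa3, a pioneer factor, was at 80.6 and 81.4 CPM. Prox1, which hepatoblasts need to migrate into the liver bud mesenchyme, was at 75.6 and 65.4 CPM. Cebpa, a regulator of hepatocyte metabolism, was at 41.4 and 40.3 CPM. Onecut2 was at 78.4 and 64.2 CPM and Tbx3, a factor of the hepatoblast state, at 28.2 and 25.6 CPM. Of the 14 with enough UMIs, 9 were at least 100-fold above the other cells, beside 4.6% of all genes. Hnf4a was 25.5-fold above in WT and 37.9-fold in KO, and was at 2.86 and 2.22 CPM in the other cells.

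The cells were epithelial and of fetal type. Krt8 and Krt18, the keratins of simple epithelium, were at 347 and 415 CPM in WT and at 395 and 469 CPM in KO, and Cdh1, E-cadherin, at 35.3 and 36.1 CPM. Dlk1, a surface marker of hepatoblasts, was at 1574 and 1720 CPM and found in every cell. The imprinted RNA H19 was at 2797 and 3160 CPM, Meg3 at 1988 and 2075 CPM, and the cell cycle inhibitor Cdkn1c at 900 and 939 CPM. Bile duct genes were nearly absent: Krt19 had 0 UMIs, Sox9 1 in each library, Krt7 1 and 0, and Spp1 0 and 2. Epcam had 1 and 9 UMIs.

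**Figure D2:**
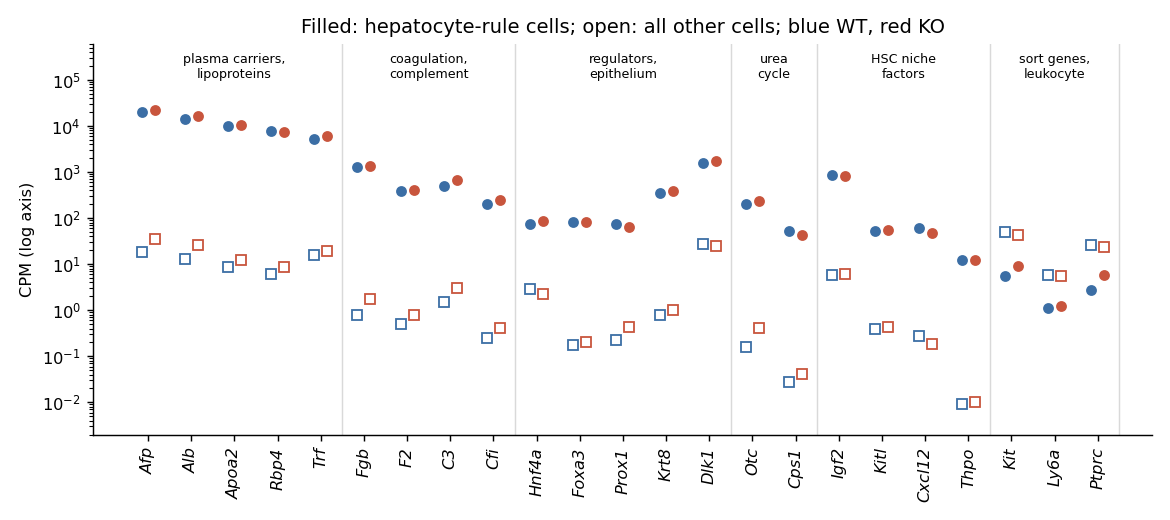
CPM (log axis) of 23 genes in the hepatic cells (filled circles) and in all other filtered cells (open squares), WT in blue and KO in red, 1 library each and grouped by role. Hepatic genes lie well above the other cells in both libraries, whereas Kit, Ly6a and Ptprc lie below them.

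Metabolic genes separated into those on in the fetus and those not found. Otc, the urea cycle enzyme encoded on the X chromosome, was at 201 CPM (WT) and 229 CPM (KO), and had a UMI in 32 and 66 cells. Cps1, the entry enzyme of the cycle, was at 51.9 and 43.6 CPM. Enzymes known to start around birth were at or near 0: Tat had 1 UMI in WT and 0 in KO, Pck1 2 and 3, and Tdo2, Sds and G6pc had none. The same held for the drug-metabolising Cyp2e1 and Cyp1a2 with 0 UMIs, the acute-phase genes Orm1, Orm2, Saa1 and Saa2 with 0, and Hamp, the iron hormone hepcidin, with 0 and 6. At 1811079 and 2384589 UMIs, a count of 0 allows up to 1.66 CPM (WT) and 1.258 CPM (KO).

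Several growth factors of the stem cell niche were far higher in these cells than in the blood cells. Igf2, the fetal growth factor, was at 844 CPM (WT) and 835 CPM (KO) (cell medians 924 and 858), against 5.81 and 6.09 CPM in the others. Cxcl12, the chemokine that retains stem cells, was at 60.2 and 47.0 CPM. Kitl, stem cell factor, was at 52.5 and 54.5 CPM, and was 133-fold and 125-fold above the other cells. Endothelial marker cells of the same libraries carried Kitl at 23.1 and 15.05 CPM and Cxcl12 at 7.35 and 8.36 CPM. Thpo, thrombopoietin, had 22 WT UMIs, in 17 cells, and 29 KO UMIs, in 21 cells, 12.1 and 12.2 CPM. Igf2, Cxcl12, Kitl and Thpo each stood at least 100-fold above the other cells, beside 4.6% of all genes, and Epo and Fgf21 had no UMI.

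Cell cycle genes were below the other, mostly progenitor, cells. Mki67 was at 187 CPM (WT) and 182 CPM (KO), against 322 and 358 CPM, and Top2a at 172 and 206 CPM, against 396 and 432 CPM. Of the 25 genes of the list, none was at least 2-fold above the other cells and 8 were at least 2-fold below, beside 6.32% of all genes. After thinning to 8500 UMIs per cell, Mki67 had a UMI in 58.1% (WT) and 57.8% (KO) of hepatic cells, against 70.8% and 78.3% of the others. Chaperones of the secretory path were high, with Hsp90b1 at 1181 and 1122 CPM and Calr at 861 and 915 CPM, and 8 of 15 were at least 2-fold above the other cells, a level that 19.6% of all genes reached.

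The genes with the highest ratios to the other cells included sparse and abundant ones. Pnliprp1, a lipase relative, was at 47.5 CPM (WT) and 54.5 CPM (KO), and 5058-fold and 1318-fold above the other cells. Its ratios rested on very few UMIs in the other cells. Mmd2 was 1529-fold and 1338-fold above, Tcea3 1059-fold and 1287-fold, and Serpina1e, an alpha-1 antitrypsin gene, 1478-fold and 1216-fold. Of the abundant genes, Ttr was 1543-fold and 1041-fold above, Serpina6 1492-fold and 975-fold, and Alb 1079-fold and 622-fold. UMIs of hepatic genes in the other droplets, described at the end, bound these ratios. Vcam1, an adhesion gene of macrophages and endothelium, was at 92.8 and 97.7 CPM in hepatic cells, beside 158.5 and 109.5 CPM in macrophage marker cells.

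UMIs of other cell types were concentrated in few hepatic cells. A cell was set apart when it held 10 or more UMIs of megakaryocyte, neutrophil, macrophage, endothelial or mesenchymal genes, or 3 or more of the 5 leukocyte genes Ptprc, Coro1a, Laptm5, Cd53 and Spi1; this was chosen after the values were seen. It marked 9 of 33 WT and 20 of 67 KO cells. Their median UMI counts were 94173 and 43896, against 38774 and 26076 in the unmarked cells, and Scrublet, a doublet caller, marked 3 and 12 of them, against 1 and 3 of the others. Over all hepatic cells Scrublet marked 12.1% (WT) and 22.4% (KO), against 3.82% and 5.54% of all other filtered cells. Of the UMIs of Pf4, a platelet factor, 97.6% lay in 1 WT cell and 72.7% in 1 KO cell. Acta2, smooth muscle actin, had 98.8% of its KO UMIs in 1 cell. Whether these were doublets was not tested. Adult globin RNA was in nearly all cells, with Hbb-bs at a median of 343 CPM (WT) and 614 CPM (KO), and erythroid genes together reached 36451 CPM in the highest WT cell and 56929 CPM in the highest KO cell.

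**Figure D3:**
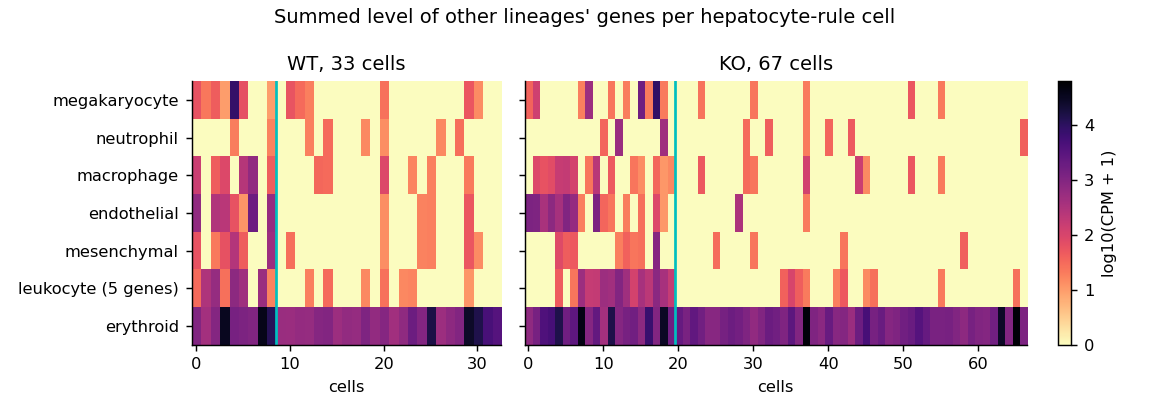
Summed CPM of 7 marker lists of other lineages, as log10(CPM + 1) by colour, in each of the 33 WT and 67 KO hepatic cells. Cells left of the vertical line (9 WT, 20 KO) carried another lineage's RNA by the thresholds in the text, and the erythroid genes were present in most cells on both sides.

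For the comparison of KO with WT, the UMIs of the hepatic cells were summed per library. A gene was counted as past 2-fold from these sums alone, if it had at least 50 UMIs over both libraries. Among 6953 such genes 51 (0.733%) were at least 2-fold higher in KO and 18 (0.259%) at least 2-fold lower, and the median log2 KO/WT over all of them was 0.03. Higher genes made up 73.9% of these calls, and 56.6% when the mean of the cells' own CPM was used, with 98 higher and 75 lower. This balance depended on the cells: the higher share was 85.4% without Scrublet doublets, 49.5% under a 2% rule (47 higher, 48 lower), 42.3% under a 5% rule (58 and 79), 50% without cells with leukocyte UMIs (43 and 43) and 30.9% in cells that had Xist but no Y-linked UMIs (29 and 65). Without the cells that carried another lineage's RNA, 36 were higher and 22 lower. Over the hepatic lists 5 genes were higher and 1 was lower. Several list medians lay close to the median of all genes: 0.10 for the 17 clotting genes, 0.08 for the 13 apolipoproteins, 0.16 for the 14 plasma carriers, −0.08 for the 14 transcription factors and −0.02 for the 5 niche genes. The selecting genes, which the rule used, had 0.08 (Afp), 0.19 (Alb), 0.11 (Ttr) and 0.08 (Apoa1).

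Acute-phase genes had the highest median of the hepatic lists, 0.52 over 8 genes, of which 7 had a positive and 1 a negative log2 KO/WT. The summed UMIs of the list had 0.13 (0.04 to 0.23). In the other cells the median of the same 8 genes was 0.72, and the summed level of the list had −0.58, so a high median was not particular to the hepatic cells. Saa3, serum amyloid A3, an inflammation-induced gene, was past 2-fold, with 31 UMIs (17.1 CPM) in WT and 133 UMIs (55.8 CPM) in KO, log2 1.70 (exact conditional interval 1.13 to 2.32). It was found in 10 of 33 and 26 of 67 cells, and after thinning in 22.6% and 23.4%, while the highest WT cell had 186 CPM and the highest KO cell 973 CPM. The highest cell held 48.4% of the WT UMIs and 19.5% of the KO UMIs. In the other cells Saa3 was at 0.22 CPM in both libraries. Itih4, an inter-alpha-trypsin inhibitor chain, was at 54.7 and 96.0 CPM, log2 0.81 (0.47 to 1.17). Hpx, the haem carrier hemopexin, had 0.17 (0.02 to 0.31), Crp 0.44 (−0.05 to 0.94) and Hp 0.85 (0.14 to 1.60). Lbp, the lipopolysaccharide-binding protein, went the other way, at 279 and 178 CPM, log2 −0.65 (−0.84 to −0.46), and its log2 KO/WT was −1.25 in the other cells.

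F7, clotting factor VII, was past 2-fold, with 18 UMIs (9.94 CPM) in WT and 94 UMIs (39.4 CPM) in KO, log2 1.99 (1.25 to 2.80). Its cell median was 0 in WT and 35.7 CPM in KO, and it was found in 36.4% and 70.1% of cells, or 3.23% and 25% after thinning, when the other cells showed 0.0303% and 0.0503%. The cells overlapped, up to 65.2 CPM (WT) and 181 CPM (KO). No other clotting gene was past 2-fold: F12 had 0.44 (0.18 to 0.71), Klkb1, plasma kallikrein, 0.65 (0.19 to 1.13), and F11 −0.32. The background of F7 in the other cells was at only 0.01 and 0.05 CPM, so its log2 KO/WT of 2.46 rested on very few UMIs.

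Cp, the copper-bearing ferroxidase ceruloplasmin, was at 6.07 CPM (11 UMIs) in WT and 24.3 CPM (58 UMIs) in KO, log2 2.00 (1.06 to 3.08). It was found in 7 and 26 cells, with the highest at 90.1 and 349 CPM. Slc39a14, a zinc and iron importer, was at 12.1 and 24.7 CPM, log2 1.03 (0.30 to 1.80). Hmox1, haem oxygenase, was the 1 gene of the hepatic lists past 2-fold downwards, at 23.7 and 11.3 CPM, log2 −1.07 (−1.82 to −0.34). Its log2 was −0.07 without the cells that carried another lineage's RNA, and 1 cell held 30.2% of its WT UMIs. Iron storage genes were closer, Fth1 at −0.25 (−0.31 to −0.20) and Ftl1 at −0.08 (−0.14 to −0.01).

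Mat1a, which makes S-adenosylmethionine in mature hepatocytes, was at 14.4 CPM (26 UMIs) in WT and 32.7 CPM (78 UMIs) in KO, log2 1.19 (0.53 to 1.89). Other genes of amino acid metabolism did not pass 2-fold: Otc had 0.19 (−0.00 to 0.39), Cps1 −0.25 (−0.67 to 0.17), Ass1 −0.31 (−0.52 to −0.11) and Bhmt −0.14 (−0.31 to 0.02). The list median was −0.01 over 16 genes, with 8 values above and 8 below 0.

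No complement gene was past 2-fold. C3 was at 486 CPM in WT (454 to 519) and at 666 CPM in KO (633 to 699), log2 0.45 (0.33 to 0.57), and its cell median was 496 and 653 CPM. C1ra, a protease of the first component, was at 13.8 and 27.3 CPM, log2 0.98 (0.30 to 1.71), and Cfi, complement factor I, at 201 and 244 CPM, 0.28 (0.09 to 0.47). Hc had −0.17 (−0.42 to 0.07) and Masp2 −0.18 (−0.55 to 0.18). Over the 11 genes with enough UMIs the median was 0.19, with 7 positive and 4 negative values.

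Alpha-1 antitrypsin genes, which encode the main protease inhibitor of the plasma, had lower values in KO for all copies but Serpina1d. Serpina1e was at 500 CPM in WT (468 to 533) and at 264 CPM in KO (244 to 286), log2 −0.92 (−1.07 to −0.77), which did not reach 2-fold. Serpina1b was at 2995 and 2178 CPM, log2 −0.46 (−0.51 to −0.40), Serpina1a at 1987 and 1742 CPM, −0.19 (−0.25 to −0.13), and Serpina1d had 0.16 (−0.00 to 0.32). These genes are near-identical copies, so reads may have been split between them, and Serpina1e alone is uncertain. Their sum was 6238 CPM (WT) and 4866 CPM (KO), log2 −0.36 (−0.40 to −0.32). The number and type of these copies differ between mouse strains, and the CD1 embryos were pooled.

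**Figure D4:**
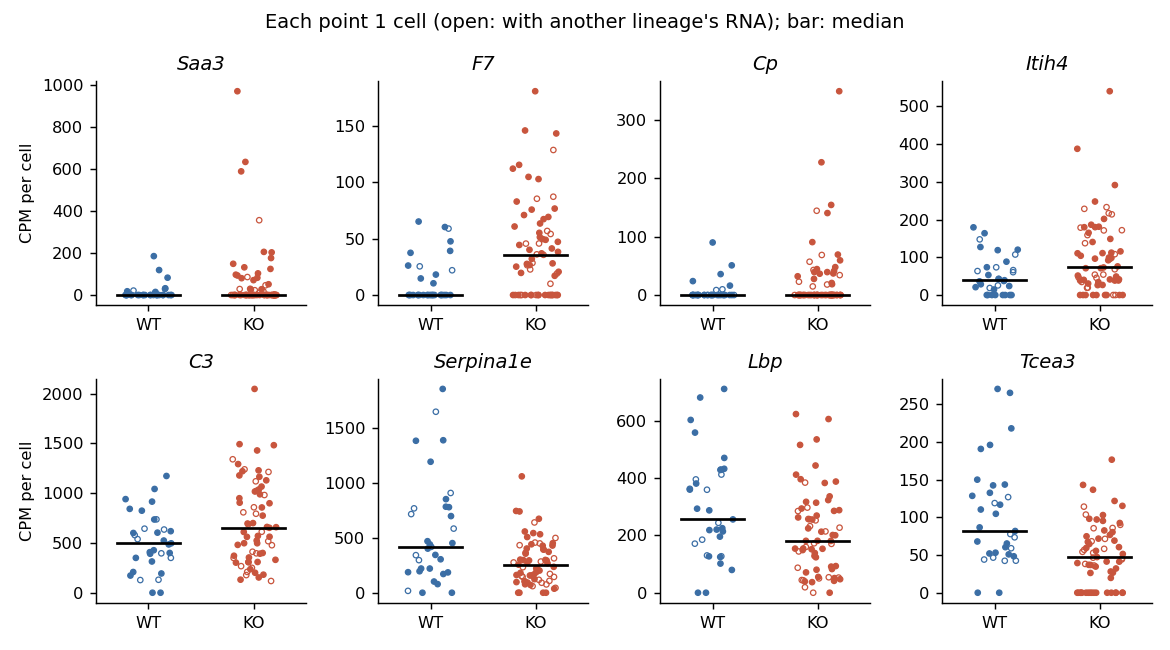
CPM of 8 genes in each hepatic cell (33 WT in blue, 67 KO in red; open points are cells with another lineage's RNA) with the median as a bar. The cells of the genotypes overlap for every gene, with medians for F7 of 0 and 35.7 CPM and for Serpina1e of 419 and 256 CPM.

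NF-κB is the pathway that IκBα holds in check, and no other listed component with enough UMIs was past 2-fold. Nfkbib, encoding IκBβ, was at 33.1 and 45.7 CPM, log2 0.46 (−0.00 to 0.94), Rela at 26.0 and 28.1 CPM, 0.11 (−0.44 to 0.68), and Nfkb1 at 17.7 and 19.7 CPM, 0.16 (−0.52 to 0.85). All 7 pathway genes with enough UMIs had positive values, with a median of 0.21, but the counting interval of each included 0. Without the cells with another lineage's RNA the signs were mixed. There Rela had −0.07, Tnfrsf1a −0.10 and Chuk −0.03, whereas Nfkbib had 0.29, Nfkb1 0.07 and Ikbkb 0.07. Nfkbil1, a gene outside the list that is named for its likeness to IκB and was picked here after its values were seen, was past 2-fold, with 15 and 42 UMIs, log2 1.09 (0.21 to 2.05). Among 5 known target genes with enough UMIs, Saa3 was past 2-fold, Cxcl10 had 0.51 (−0.07 to 1.11), Icam1 0.18 (−0.43 to 0.80) and Sod2 −0.38 (−0.60 to −0.17). Others were sparse, and those named here were picked after their values were seen. The subunit gene Relb had 4 and 18 UMIs, log2 1.77 (0.17 to 3.80), Lcn2 4 and 25, and Tnfaip3 1 and 6. Without the cells with another lineage's RNA, Relb had 3 and 12 UMIs, 1.69 (−0.20 to 4.15). In those cells Nfkb2 had 6 and 7, log2 −0.09, Ikbkg 14 and 14, −0.31, Rel 6 and 9, 0.27, and Nfkbiz 9 and 18, 0.69. The promoter windows of Saa3, C3 and Lcn2 held no match to the narrow form of the NF-κB site. That says only that its letters are not in that stretch, and looser forms were not searched.

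Of the retinoid genes, 9 had enough UMIs, and none of these was past 2-fold, with a median of −0.07. Rbp4 differed by −0.07 (−0.10 to −0.04) in log2 KO/WT, and Dhrs3, which reduces retinal to retinol, by 0.71 (0.25 to 1.19). Among sparser genes, the receptor Rara had 12 and 28 UMIs, log2 0.83 (−0.20 to 1.94), and 4 and 17 UMIs, 1.78 (0.16 to 3.81), without the cells with another lineage's RNA. Counts of the other receptor genes in those cells were too few to tell them apart from Rara. Rxra had 25 and 26 UMIs, −0.25 (−1.10 to 0.60), and Rxrb 23 and 17, −0.75 (−1.74 to 0.22). Rarb had 3 and 0 UMIs and Rarg 0 and 1. The retinoic acid hydroxylases Cyp26a1 and Cyp26b1 had no UMI in hepatic cells of either library, and Aldh1a2, which makes retinoic acid, 1 and 2. In the growth factor group Igf2 had −0.02 (−0.11 to 0.08), Thpo 0.00 (−0.85 to 0.87) and Kitl 0.06 (−0.34 to 0.45), and for Thpo a change of almost 2-fold either way lay within the counting interval.

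The antioxidant list had a median of −0.25 over 12 genes. In it Mt1 had −0.30 (−0.33 to −0.27), its neighbour Mt2 −0.33 (−0.40 to −0.26) and Sod1, which removes superoxide, −0.33 (−0.52 to −0.14), and none was past 2-fold. The medians were 0.01 over 25 cell cycle genes, 0.01 over 15 secretory path genes, 0.02 over 14 epithelial genes, 0.03 over 11 protease inhibitors, 0.09 over 12 imprinted and IGF genes and 0.11 over 10 iron genes. A median near 0 covered genes of both directions: protease inhibitors ran from −0.92 to 0.81, with −0.26 (−0.29 to −0.23) for their summed UMIs, and iron genes from −1.07 (Hmox1) to 2.00 (Cp), with 3 of 10 past 2-fold. Among cell cycle genes Mki67 had −0.04 (−0.25 to 0.17) and Top2a 0.26 (0.06 to 0.47). H19 had 0.18 (0.12 to 0.23) and Krt8 0.19 (0.04 to 0.33).

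Beyond the lists, genes with at least 200 UMIs were ranked by size. At the high end, outside the hepatic lists, Mpo (log2 2.20) and Prtn3 (2.24), granule proteins of neutrophil precursors, had 48.5% and 55.1% of their KO UMIs in 1 cell. Rnaset2a, a ribonuclease, was at 30.4 and 78.0 CPM, log2 1.36 (0.92 to 1.82), and had 0.77 in the other cells. Junb, an AP-1 subunit, was at 33.7 and 63.3 CPM, log2 0.91 (0.47 to 1.36), and had −0.01 in the others. At the low end Stmn1, a microtubule regulator, was at 294 and 130 CPM, log2 −1.18 (−1.39 to −0.98), beside −1.04 in the others. Tcea3, a transcription elongation factor, was at 99.4 and 53.3 CPM, log2 −0.90, beside −1.18 in the others on few UMIs. Gstp1, a glutathione transferase, had −0.83, beside −0.74 in the others. Stmn1 and Gstp1 were thus lower in the KO library in the blood cells as well.

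The genes past 2-fold downwards included the endothelial genes Cdh5 (log2 −1.13), Flt1 (−1.51) and Fabp4 (−1.09), beside 10 or more endothelial UMIs in 5 of 33 WT and 8 of 67 KO cells. Once the cells with another lineage's RNA were left out, Cdh5 and Flt1 had 1 UMI in WT and 0 in KO. Fabp4 fell from 118 and 73 UMIs to 8 and 3, log2 −1.73 (−4.27 to 0.33). Tshz2, a zinc finger factor, was at 37.5 CPM (68 UMIs) in WT and 10.9 CPM (26 UMIs) in KO, log2 −1.78 (−2.50 to −1.11). It had a UMI in 26 of 33 WT and 20 of 67 KO cells, or in 19.4% and 6.25% after thinning, when 1.46% and 1.23% of the other cells had one. Its log2 was −1.67 without the cells with another lineage's RNA, and endothelial marker cells carried it at 142 and 105 CPM.

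Several genes kept their direction in the 24 WT and 47 KO cells without another lineage's RNA. These cells are part of the hepatic cells compared above and share their UMIs, so their values are not a separate check. There Saa3 had 29 and 113 UMIs and log2 1.65, F7 had 2.10, Cp 1.91, Mat1a 1.60 and Itih4 0.97, and C1ra rose from 0.98 to 1.69. Alb had 0.27, Afp 0.19 and Serpina1e −0.71. Mpo had 6 and 9 UMIs and Acta2 none, which follows in part from how the cells were set apart. Of the 51 higher genes over all hepatic cells, 12 still had 50 UMIs in these cells, of which 11 were past 2-fold, and of the 18 lower genes 6 had, all 6 past 2-fold. Counting also genes left with fewer UMIs, but none left with 0 UMIs in a library, 28 of the 51 and 10 of the 18 had a ratio of 2-fold or more in the same direction.

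**Figure D5:**
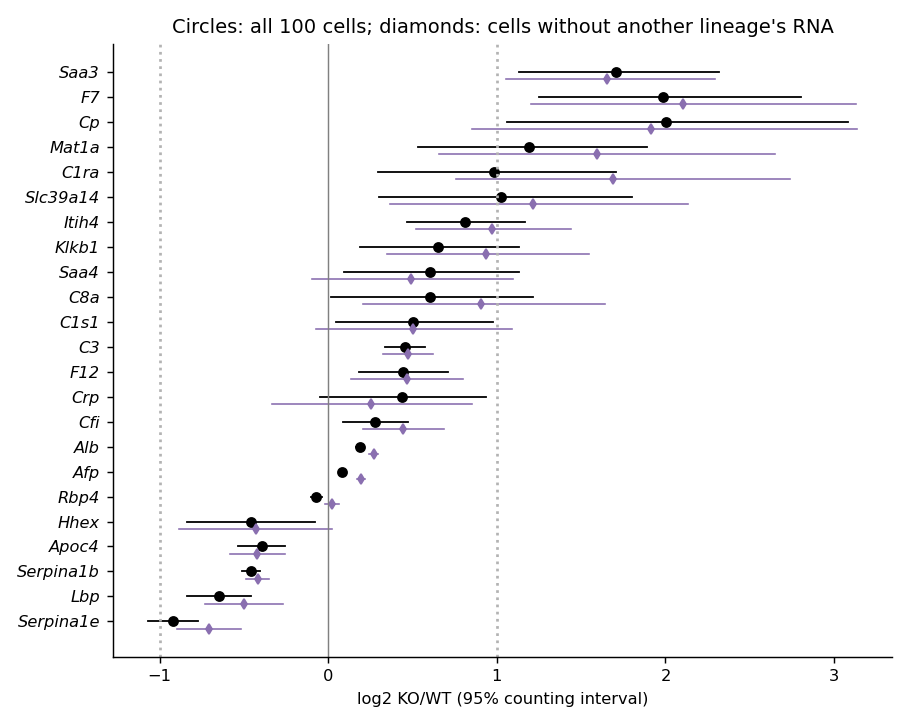
log2 KO/WT of 23 genes with 95% counting intervals, over all 100 hepatic cells (black circles) and over the 24 WT and 47 KO cells without another lineage's RNA (purple diamonds); dotted lines mark 2-fold. Saa3, F7, Cp, Mat1a and Slc39a14 lie past 2-fold in both sets, and Serpina1e at −0.92 and −0.71 does not.

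UMIs of hepatic genes were also found in the cells below the boundary. The 4 selecting genes made up 41.9 CPM of the other WT cells and 76.5 CPM of the other KO cells, 0.0859% and 0.145% of the level in hepatic cells. The log2 KO/WT of this background was 0.87 (0.82 to 0.92), and 0.50 for 10 hepatic genes outside the rule: Apoa2, Rbp4, Trf, Serpina6, Apoc2, Apom, Ahsg, Fabp1, Fgb and Ambp. With every cell thinned to 8500 UMIs, which left out 127 WT and 376 KO cells, at least 1 UMI of the 4 genes was in 28.0% of other WT cells and 44.8% of other KO cells (61.9% and 74.2% before thinning). The other cells of the KO library thus held more hepatic UMIs than those of the WT library. For 100 UMIs of Alb, the other cells had 142 of Afp in WT and 136 in KO, against 146 and 135 in hepatic cells. Trf was at 123 and 73.3 per 100, against 36.9 and 37.1, and macrophage marker cells carried Trf at 228.5 and 226 CPM.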

How the data were processed

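The authors deposited 2 matrices of raw UMI counts per gene and cell barcode (32285 genes), made with Cell Ranger 6.0.0 on GRCm38, 1 per genotype, from pools of 2 WT and 3 KO embryos. No normalization had been applied. Barcodes were dropped below 1000 detected genes or above 20% mitochondrial UMIs. The members, the gene lists and the named-gene rule were chosen with earlier results of these data known. UMIs were summed over cells and given as counts per 1000000 UMIs (CPM), with exact Poisson, Clopper-Pearson and conditional 95% intervals. Since each genotype had 1 library, no test was run; cells are not replicates. A gene counted as past 2-fold with at least 50 UMIs over both libraries, and a count of 0 was given a limit of 3 UMIs. Macrophage and endothelial marker cells had at least 0.1% of their UMIs in 3 and 4 marker genes. Doublets were called with Scrublet (expected 5%) and kept. Shares of cells were compared after thinning each cell to 8500 UMIs.

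Named were the selecting genes and Rbp4, in each list the up to 6 genes of highest CPM and those past 2-fold, the 10 highest and 10 lowest by log2 KO/WT and the 15 highest by CPM and by ratio to other cells among genes with at least 200 UMIs (without haemoglobin, mitochondrial, Xist and Y-linked genes), Nfkbia, Kit, Ly6a and Ptprc. Further list genes were named after their values were seen. The 30 lists held 404 genes. Some of these genes are not reported here. Promoter windows came from RefSeq (GRCm38.p6); Ttr and Onecut2 have none printed. The scripts were tested on simulated data. Alternatives were other rule thresholds, cell filters, scalings and count minimums. Python 3.11.15, numpy 2.4.6, scipy 1.17.1, pandas 2.3.3, scanpy 1.11.5 and matplotlib 3.10.9 were used.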

Additional observations from a re-analysis of the deposited data

Results flagged for a closer look

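Barcodes removed by the cell filters, which enter no comparison above, also held hepatic transcripts. In 9 of 382 removed WT barcodes (2.36%, exact binomial interval 1.08 to 4.43) and 16 of 511 removed KO barcodes (3.13%, 1.80 to 5.04), Alb, Afp, Apoa1 and Ttr made up at least 1% of the UMIs. A count of 0 would have allowed 0.785% and 0.587%. Too few detected genes had removed 7 and 12 of them and too many mitochondrial UMIs 5 and 11. Their median UMI counts were 828 and 1996, and the 4 genes made up 1.73% to 11.1% of their UMIs in WT and 1.07% to 8.63% in KO.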

How the results depend on the processing

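No paired analysis was possible because the WT and KO arms hold 1 library apiece. Settings that leave out cells with another lineage's RNA, use the 10 genes outside the rule or use only cells under 0.1% were chosen after seeing the data. Of the values of named genes under the alternatives, 334 stayed within their counting interval, 25 moved beyond it on genes that kept their direction or were not past 2-fold, and 2 turned the direction of a gene past 2-fold: Rabgap1l, log2 1.18 on 51 and 152 UMIs in few cells, had −2.40 under a 5% rule and −1.23 in cells that had Xist but no Y-linked UMIs (Xist-only). Of the 25, Mest went from −0.99 to 0.22 and Cd24a from −0.74 to 0.15 under the 5% rule. The cause was not tested.

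Under a 5% rule the share of hepatic cells was 0.492% in WT and 0.815% in KO; the KO share was 1.17% in Xist-only cells and 1.06% without cells with another lineage's RNA. The count of 51 higher genes became 111 without Scrublet doublets (22 of the 51 shared), 29 in Xist-only cells, 98 by mean CPM per cell, 252 at 20 UMIs and 5 at 200 UMIs. The 18 lower genes became 48 at 2%, 79 at 5%, 65 in Xist-only cells, 43 without cells with leukocyte UMIs, 75 by mean CPM per cell, 124 at 20 UMIs and 1 at 200 UMIs. The 5 higher list genes became 11 without leukocyte UMIs, 8 by mean CPM per cell, 11 at 20 UMIs and 0 at 200 UMIs. The 1 lower list gene, Hmox1, became 3 at 20 UMIs, and 0 at 2%, without the deepest cell of each library, without leukocyte UMIs, without another lineage's RNA, by mean CPM per cell and at 200 UMIs.

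The median log2 of the selecting genes, 0.10, became 0.14 at 2%, 0.22 in Xist-only cells, 0.065 without the deepest cells, 0.34 without leukocyte UMIs, 0.18 without another lineage's RNA, 0.065 by median-of-ratios scaling and 0.13 by mean CPM per cell. The apolipoprotein median of 0.08 became 0.039 at 5%, 0.041 without the deepest cells, 0.14 in Xist-only cells, 0.27 without leukocyte UMIs and 0.15 without another lineage's RNA. Without leukocyte UMIs the medians were also 0.36 for plasma carriers, 0.34 for clotting, 0.45 for complement, 0.12 for retinoid and 0.32 for imprinted and IGF genes. Clotting genes had 0.22 in Xist-only cells and 0.21 without another lineage's RNA. The retinoid median of −0.07 became 0.011 at 5%, 0.050 without Scrublet doublets, 0.039 in Xist-only cells, −0.14 without the deepest cells, 0.022 without another lineage's RNA, −0.11 without abundant genes in the CPM, −0.10 by median-of-ratios scaling, −0.0052 by mean CPM per cell and −0.12 at 200 UMIs. The niche median of −0.02 became −0.12 at 5%, −0.14 without the deepest cells, −0.22 by mean CPM per cell and −0.13 at 200 UMIs. Imprinted and IGF genes, at 0.09, had 0.18 at 5%, 0.19 without Scrublet doublets and 0.28 without another lineage's RNA, and cell cycle genes, at 0.01, had 0.44 at 5%. Hepatic UMIs in the other cells, log2 0.87, had 1.12 at 2%, 0.53 at 5%, 1.00 in Xist-only cells, 0.50 for 10 genes outside the rule, 0.74 in cells under 0.1% and 0.68 as the share of cells at a fixed depth. Saa3, F7 and Cp kept their direction and stayed past 2-fold under every setting that gave them a value; Cp had none in Xist-only cells, and all 3 lay below the 200-UMI minimum.

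Depth limits genes near 10 CPM, such as F7 with 18 WT UMIs, to intervals over 1 log2 unit wide.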
